A study of Mus musculus with 7 samples.

Results

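The adrenergic receptor genes code for the cell surface receptors of noradrenaline and adrenaline, and 8 of them were looked for in arrays of mouse mesenteric artery. A gene was taken where the platform annotation gave a row exactly 1 symbol and that symbol was the receptor's. Of the 8 genes, 2 had such a row, 1 row each: Adra1b, the alpha-1B receptor, and Adra2c, the alpha-2C receptor. They are 2 of 23332 rows. For the other 6 genes (Adra1a, Adra1d, Adra2a, Adra2b, Adrb1 and Adrb3) no row carried that single symbol, and they were not analysed here. The account below therefore covers 1 alpha-1 and 1 alpha-2 receptor and no beta receptor.

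Alpha-1 receptors on arterial smooth muscle couple to Gq and phospholipase C, which raise cytosolic calcium and contract the vessel. Alpha-2 receptors couple to Gi, which lowers cyclic AMP, and sit both on vascular cells and on sympathetic nerve endings, where they restrain further release of noradrenaline. Beta receptors couple to Gs and adenylyl cyclase. The mesenteric bed is a dense target of sympathetic nerves, whose tone is one determinant of its resistance.

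The arteries came from 3 male mice that carry human PPARγ with the dominant-negative P467L mutation, and from 4 littermates without the transgene. PPARγ is a nuclear receptor that acts together with RXR on target genes. The transgene is driven by the smooth muscle myosin heavy chain promoter, so it is aimed at smooth muscle. The array reads RNA of the whole vessel sample, which can include endothelium, nerve fibres, adventitia and attached fat. Each array held the RNA of 1 mouse, hybridised to an Affymetrix mouse exon array. The sources used here give neither age nor strain. In such bulk RNA, fewer cells of a type and less RNA per cell cannot be told apart. Precision is limited by the number of arrays, 3 and 4 per group.

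The values are log2 expression values per row as deposited. Array medians lay between 6.29 and 6.34, and Pearson's r between arrays, across rows that are not independent replicates, was 0.954 to 0.979. All 12 measured smooth muscle markers lay above the 95th percentile of the olfactory receptor rows described below, at row means of 7.80 to 12.01, so smooth muscle transcripts were present as the tissue label has it. The Pparg row was at 6.73, 6.77 and 6.48 in P467L artery, against 7.20, 6.49, 6.68 and 6.73 in non-transgenic artery. Its probes were designed for mouse and may or may not detect transcripts of the human transgene, so the genotype labels cannot be checked by it. Myh11, whose promoter was used, was at 11.32, 11.43 and 11.44 in P467L artery, against 11.44, 11.51, 11.57 and 11.44 in non-transgenic artery.

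The RefSeq promoters of both genes, 250 bases before to 50 bases after an annotated start, are shown because PPARγ with RXR binds paired copies of the letters AGGTCA, and the transgene product interferes with PPARγ. All are given on build GRCm38.p6, while the submitters name mm9 for the array, so these positions were not joined to the array's probes. Capitals mark AGGTCA on either strand. The Adra2c promoter (chr5:35278316-35278615, plus strand) holds it once, beginning 51.0 bases before the start. Adra1b has a pair of annotated starts on the minus strand, an upstream one (chr11:43901188-43901487) and a downstream one (chr11:43836440-43836739), and neither window holds it.
Adra2c: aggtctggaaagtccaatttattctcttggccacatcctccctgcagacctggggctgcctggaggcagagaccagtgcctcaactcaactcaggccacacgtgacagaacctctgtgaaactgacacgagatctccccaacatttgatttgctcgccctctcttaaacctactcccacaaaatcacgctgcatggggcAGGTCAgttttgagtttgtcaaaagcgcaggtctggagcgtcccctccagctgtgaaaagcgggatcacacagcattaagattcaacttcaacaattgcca
Adra1b, upstream start: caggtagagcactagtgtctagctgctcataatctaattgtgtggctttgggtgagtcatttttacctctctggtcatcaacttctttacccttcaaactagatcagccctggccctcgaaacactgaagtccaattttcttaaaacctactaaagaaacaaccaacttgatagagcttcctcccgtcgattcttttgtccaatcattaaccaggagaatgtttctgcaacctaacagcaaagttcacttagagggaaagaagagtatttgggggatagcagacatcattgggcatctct
Adra1b, downstream start: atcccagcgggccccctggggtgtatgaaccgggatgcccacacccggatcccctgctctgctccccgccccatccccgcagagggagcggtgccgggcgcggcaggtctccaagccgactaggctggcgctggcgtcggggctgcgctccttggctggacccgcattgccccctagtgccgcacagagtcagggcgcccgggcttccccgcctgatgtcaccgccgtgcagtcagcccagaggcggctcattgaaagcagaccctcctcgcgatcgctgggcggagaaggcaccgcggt
The windows around the starts of Adra1b differ in base composition, with 71.3% G and C at the downstream and 42.3% at the upstream start, and the Adra2c window has 51.3%. AGGTCA or its reverse complement was in 16.3% of 32851 promoters of this length, so a single copy is common. The full paired motif AGGTCANAGGTCA, searched on both strands and containing the shorter one, was in 0.0396% of promoters and in 0 of the 3 windows. A CArG box, the site of serum response factor found in smooth muscle genes, was in 1.63% of promoters and in 0 of the 3 windows. A match is a description of letters in these windows only.

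Whether the artery expresses a receptor cannot be read from the log2 value alone, because probes of different rows differ in brightness. The 713 rows of olfactory receptor genes, for which little signal is to be expected in artery, were therefore used as a background. Their row means ran from 1.95 to 8.12, with a median of 4.58 and a 95th percentile of 6.59. Both adrenergic receptor rows lay inside this background. The Adra1b row, with a mean of 6.25 over the 7 arrays, was above 89.1% of the olfactory receptor rows, and the Adra2c row, with a mean of 5.82, was above 80.9% of them. On 0 of 7 arrays did either row exceed that array's own 95th percentile, which ran from 6.58 to 6.83. At this background neither transcript was distinguishable from rows with little expected signal, which does not show that it is absent. The rows were also not set against each other, since their probes differ.

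**Figure D1:**
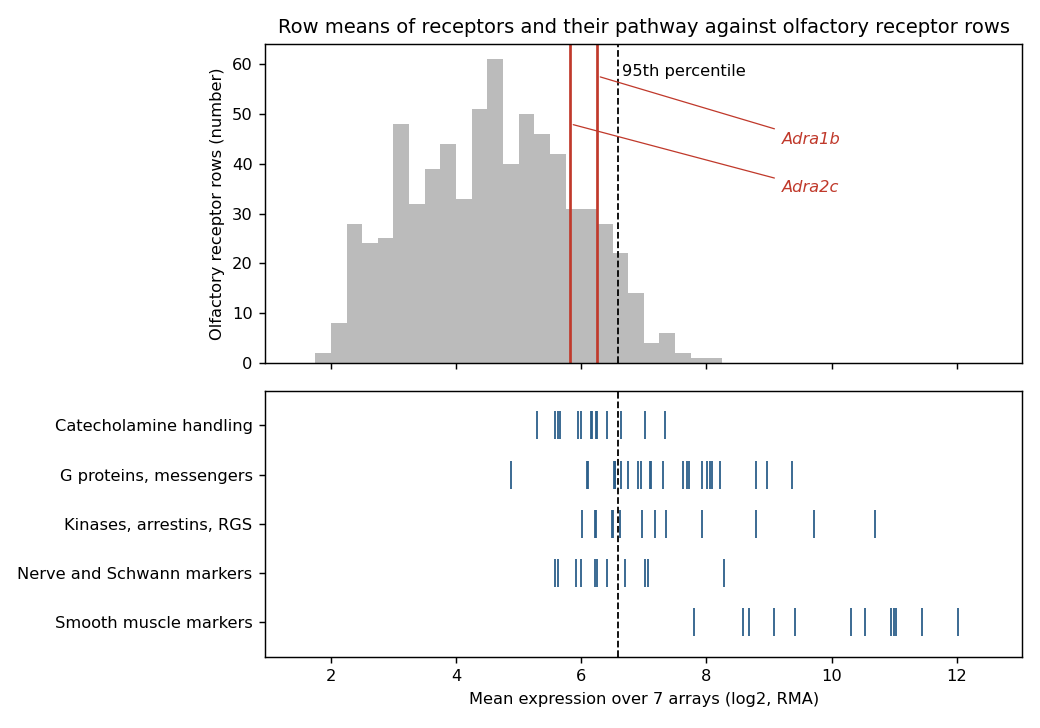
The upper panel is a histogram of the means (log2, x axis) of 713 olfactory receptor rows (number of rows, y axis). Red lines mark the Adra1b mean of 6.25 and the Adra2c mean of 5.82, and a dashed line marks the 95th percentile of 6.59. The lower panel marks each measured gene of 5 lists by its row mean, and all 12 smooth muscle markers lie to the right of the dashed line.

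Adra1b, the alpha-1 subtype with a row, was at 6.19, 6.26 and 6.37 in P467L artery, against 6.30, 6.33, 6.26 and 6.03 in non-transgenic artery. The groups overlapped: the highest value was P467L replicate 3, and the lowest was non-transgenic replicate 4, which lay 0.34 below it. Means were 6.27 ± 0.091 (SD, n = 3) in P467L and 6.23 ± 0.14 (SD, n = 4) in non-transgenic artery. The difference of 0.043, with a standard error of 0.088, was smaller than the SD in either group (limma, adjusted p = 1; exact two-sided permutation p = 0.857). Its 95% interval, not adjusted for the number of rows, ran from -0.17 to 0.26, or from 0.888-fold to 1.20-fold. The interval is a range of differences compatible with these arrays and not a limit of detection. The sign rested on single arrays: the difference was -0.0050 without P467L replicate 3 and -0.023 without non-transgenic replicate 4.

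Adra2c, the alpha-2 subtype with a row, was at 5.93, 5.67 and 5.85 in P467L artery, against 5.83, 5.83, 5.78 and 5.83 in non-transgenic artery. The P467L arrays held both the highest value, in replicate 1, and the lowest, in replicate 2, and enclosed all 4 non-transgenic values. Means were 5.82 ± 0.13 (SD, n = 3) in P467L and 5.82 ± 0.025 (SD, n = 4) in non-transgenic artery. The groups differed by -0.00083 (SE 0.066, 95% interval -0.16 to 0.16; limma, adjusted p = 1; exact two-sided permutation p = 1). That interval corresponds to 0.894-fold to 1.12-fold. The small SD of the non-transgenic group goes with a tie, since 3 arrays held the same value of 5.83, as happens on at least 3 arrays in 33.4% of all rows. Leaving out P467L replicate 2 gave 0.072, and leaving out P467L replicate 1 gave -0.057.

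**Figure D2:**
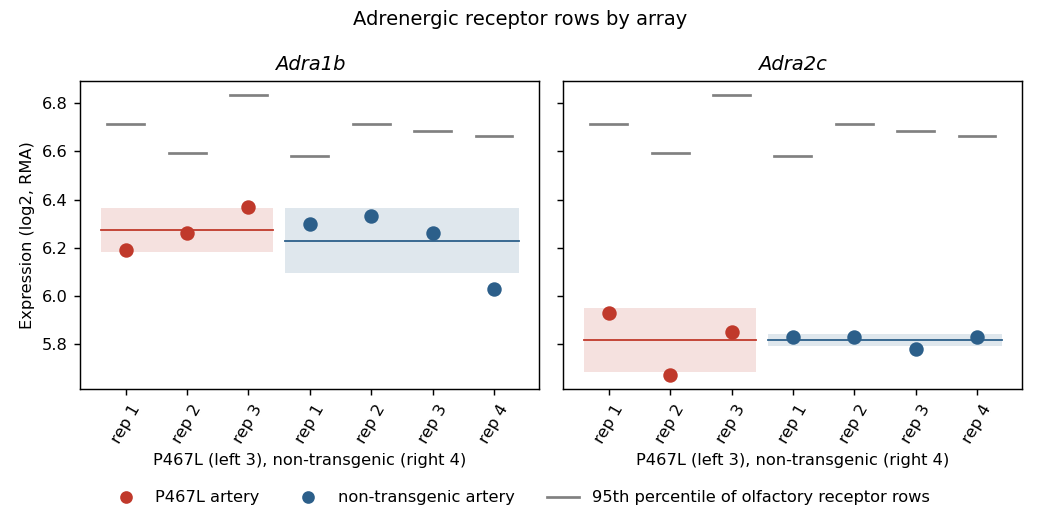
Log2 expression (y axis) of Adra1b (left panel) and Adra2c (right panel) on each array, with P467L replicates in red and non-transgenic replicates in blue. Coloured lines are group means, shaded bands are ± 1 SD, and grey bars give each array's 95th percentile of the olfactory receptor rows. The groups overlap for both genes, and every point lies below its grey bar.

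Of both receptor genes, 0 passed an adjusted p of 0.05 in limma or at an unadjusted p of 0.05, and in 0 did the groups separate. Over all rows 0 (0%) passed the adjusted threshold in either direction, 724 (3.10%) had an unadjusted p under 0.05, and 600 (2.57%) had groups that did not overlap. In 97.8% of all rows the difference was larger in size than that of Adra2c, and in 64.4% larger than that of Adra1b. The median of the 2 receptor differences was 0.021, beside -0.0025 over all rows. With 3 against 4 arrays the smallest exact two-sided p is 0.0571, so that test cannot pass 0.05 for a single gene. By the rule for genes of like pattern, none was named, because the SD over the 7 arrays was 0.11 for Adra1b and 0.079 for Adra2c, both under the minimum of 0.2.

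The genes around the receptors were measured in 3 lists: the making and clearing of catecholamines, the G proteins and messenger enzymes, and the kinases, arrestins and RGS proteins that end the signal. Of 62 listed symbols, some of them older and newer names of the same gene, 51 had a row. In limma, 0 passed after adjustment over all rows, where 0% of rows did. The P467L mean was the higher one in 24 of the 51 and the lower one in 27, and the median difference was -0.0083. At an unadjusted p of 0.05 there were 6 (11.8%), beside 3.10% of all rows, and in 5 (9.80%) the groups did not overlap, beside 2.57% of all rows. These lists were chosen with earlier results on Rgs5 and Rgs4 known, and both of these genes are among the 5.

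On the ligand side, 14 of 17 genes were measured, of which 9 had higher and 5 lower means, with a median difference of 0.018. Only 3 of the 14 had row means above the olfactory 95th percentile. Th, the rate-limiting enzyme of catecholamine synthesis, held the value 6.24 on 5 of 7 arrays and differed by 0.022 (95% interval -0.051 to 0.094). Dbh, which makes noradrenaline from dopamine, was at 5.62 ± 0.095 (SD, n = 3) in P467L and 5.55 ± 0.035 (SD, n = 4) in non-transgenic artery, a difference of 0.067. Slc6a2, the transporter that returns noradrenaline to the nerve ending, differed by -0.0050. Th, Dbh and Slc6a2 exceeded the olfactory 95th percentile on 0 of 7 arrays, so their rows too lay inside the background. Whether these rows report on the sympathetic nerves of the artery was not tested. Npy, the peptide released together with noradrenaline, exceeded that percentile on 7 of 7 arrays and differed by -0.030 (95% interval -0.19 to 0.13).

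Among the genes that clear amines, Maob and Slc22a2 had the smallest p in the list. Maob, a mitochondrial monoamine oxidase, was at 6.99, 7.29 and 6.66 in P467L artery, against 6.79, 6.20, 6.25 and 6.31 in non-transgenic artery. Non-transgenic replicate 1 lay above P467L replicate 3, and the other P467L values were above all non-transgenic ones. The 1.51-fold higher mean (0.59 on the log2 scale, SE 0.20) did not pass (limma, adjusted p = 1; exact permutation p = 0.114). Slc22a2, an organic cation transporter of low-affinity amine uptake, was at 6.66, 6.51 and 6.47 in P467L artery, against 6.19, 6.32, 6.39 and 6.31 in non-transgenic artery. Its groups did not overlap, but the difference of 0.24, with a standard error of 0.068, did not pass (limma, adjusted p = 1; exact permutation p = 0.0571, the smallest possible). The Slc22a2 row was above the olfactory 95th percentile on 0 arrays and the Maob row on 3.

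Of 27 listed G protein and messenger genes 24 were measured, with 11 higher and 13 lower means, a median difference of -0.030, and 18 above the olfactory 95th percentile. In the Gq arm used by alpha-1 receptors, Gnaq and Gna11 exceeded that percentile on 7 of 7 arrays. Gnaq, an alpha subunit, was at 8.16 ± 0.16 (SD, n = 3) in P467L and 7.89 ± 0.33 (SD, n = 4) in non-transgenic artery. Its difference of 0.27 was smaller than the SD of the non-transgenic group and larger than that of the P467L group (limma, adjusted p = 1). Gna11, the closely related alpha subunit, differed by -0.080, with an SD of 0.28 in P467L artery. Of the phospholipase C isoforms that Gq activates, Plcb4 was at 7.99, 8.20 and 7.82 in P467L artery, against 8.62, 8.26, 8.41 and 8.23 in non-transgenic artery. The groups did not overlap, by a margin between 8.20 in P467L replicate 2 and 8.23 in non-transgenic replicate 4. The P467L mean was 1.30-fold lower (-0.38 on the log2 scale, SE 0.13), which did not pass (limma, adjusted p = 1; exact permutation p = 0.0571). Plcb1 and Plcb3 differed by -0.078 and -0.081, with 95% intervals that included 0. Plcb1 held the value 6.56 on 5 of 7 arrays. Its row was above the olfactory 95th percentile on 1 array, and the Plcb3 row on 7.

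In the Gi arm used by alpha-2 receptors, Gnai2 and Gnai3, alpha subunits that inhibit adenylyl cyclase, differed by 0.032 and -0.067, less than the SDs within either group. Gng2, a gamma subunit that pairs with beta subunits and is shared among G proteins, was at 7.61, 7.38 and 7.66 in P467L artery, against 7.19, 7.12, 7.0 and 7.22 in non-transgenic artery. All P467L values lay above all non-transgenic ones, and the mean was 1.34-fold higher. This difference of 0.42, with a standard error of 0.088, had the smallest unadjusted p of the 51 genes, 0.00322, and did not pass over all rows (limma, adjusted p = 1; exact permutation p = 0.0571). Adcy5, an adenylyl cyclase that Gi inhibits and Gs stimulates, was at 7.37, 7.76 and 7.54 in P467L artery, against 7.76, 8.03, 7.90 and 7.75 in non-transgenic artery. The value 7.76 occurred in both groups, and the groups differed by -0.30, SE 0.11 (limma, adjusted p = 1; exact permutation p = 0.171).

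**Figure D3:**
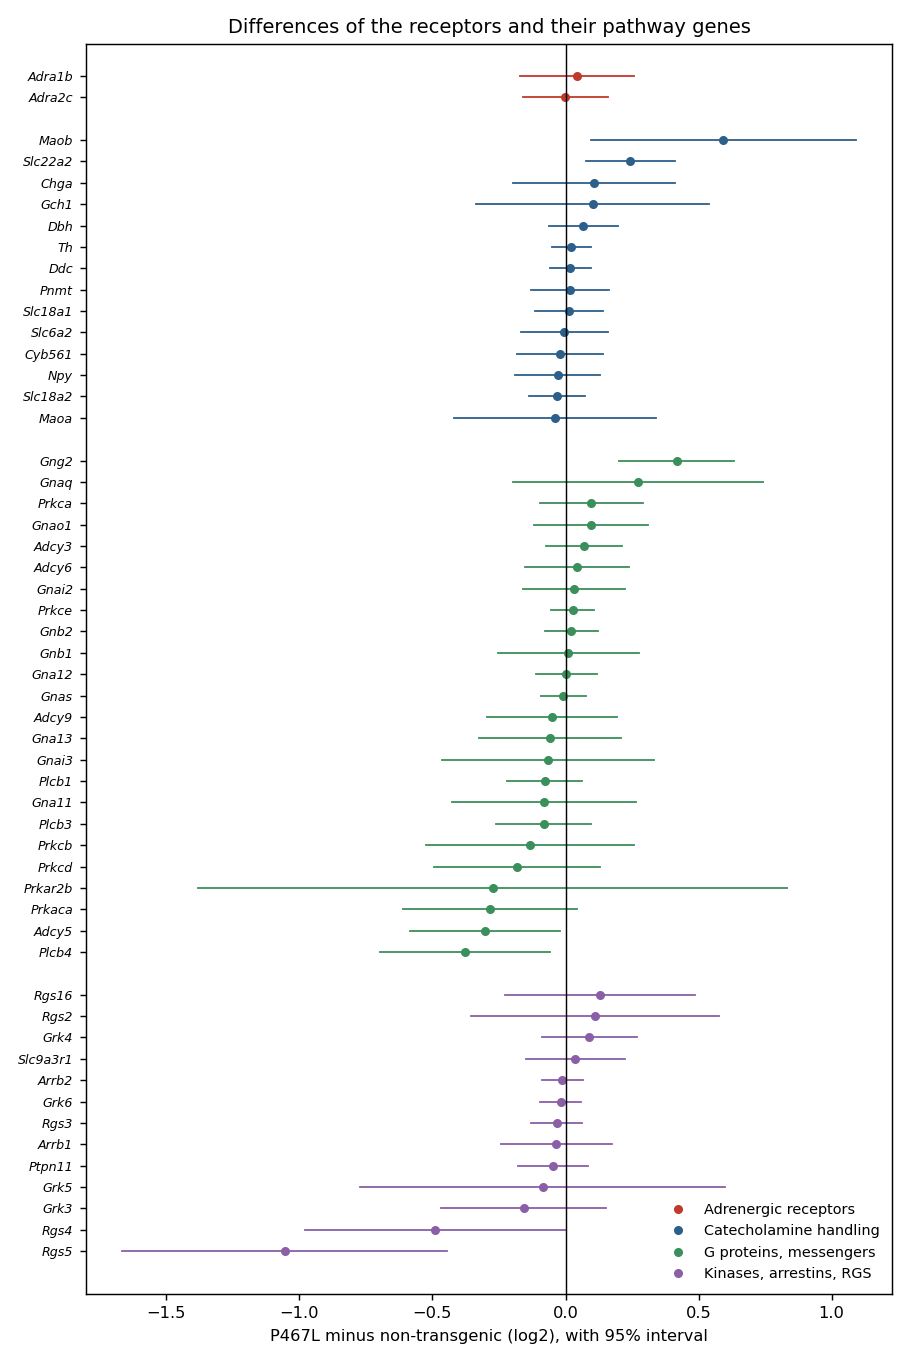
P467L minus non-transgenic difference (log2, x axis) of the 2 adrenergic receptor genes and of 51 genes of 3 lists around them, 1 gene per line. Points are differences and bars are 95% intervals from limma, not adjusted for the number of rows. The receptor points lie at 0.043 and -0.00083, and the ends of the range are Maob at 0.59 and Rgs5 at -1.06.

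Of 18 symbols in the kinase, arrestin and RGS list, some of them older and newer names of the same gene, 13 were measured. These had 4 higher and 9 lower means and a median difference of -0.033, and 8 had row means above the olfactory 95th percentile. The 13 include Slc9a3r1 and Ptpn11, which are not kinase, arrestin or RGS genes. Rgs5 and Rgs4, which speed the turning off of Gq and Gi, differed by -1.06 and -0.49, with groups that did not overlap (limma, adjusted p = 1 for each; exact permutation p = 0.0571 for each). Their P467L values were lowest in replicate 3, at 9.53 for Rgs5 and 8.04 for Rgs4, and without that array the differences were -0.77 and -0.25. With array weights that of Rgs4 was -0.29. Rgs5 had 2 rows, and only the one with the higher mean is given here. Grk3, a kinase that marks active receptors for arrestin, was at 6.23, 6.71 and 6.29 in P467L artery, against 6.50, 6.67, 6.61 and 6.49 in non-transgenic artery. Its row was above the olfactory 95th percentile on 1 of 7 arrays. P467L replicate 2 was the highest of the 7 values, and the groups differed by -0.16, SE 0.13 (limma, adjusted p = 1). Single arrays moved this difference to -0.31 without P467L replicate 2, -0.067 without P467L replicate 1 and -0.097 without P467L replicate 3, and array weights moved it to -0.29.

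Markers of the cells that could carry the receptors are given beside these values, and their part in them was not tested. Of 11 measured sympathetic nerve and Schwann cell markers 6 had higher and 5 lower means, with a median difference of 0.022, and 5 of the 11 are also in the catecholamine list. The row means of 7 of the 11 did not exceed the olfactory 95th percentile, so this count and median rest mostly on rows inside the background. Stmn2, a neuronal tubulin-binding protein, differed by 0.26, the glial calcium-binding protein gene S100b by 0.19, and Uchl1, a neuronal ubiquitin hydrolase, by -0.14. The Stmn2 row exceeded the olfactory 95th percentile on 7 of 7 arrays, the Uchl1 row on 4 and the S100b row on 0. Smooth muscle markers had 1 higher and 11 lower means (median -0.10), adipocyte markers 1 and 9 (median -0.26), and brown adipocyte markers 1 and 7 (median -0.11). Endothelial markers had 6 higher and 5 lower (median 0.0013), fibroblast markers 8 and 2 (median 0.065), and macrophage markers 10 and 0 (median 0.15). Row means did not exceed the olfactory 95th percentile in 6 of 8 brown adipocyte, 4 of 10 macrophage and 2 of 10 adipocyte markers. The same held for 1 of 12 endothelial and 1 of 10 fibroblast markers. The brown adipocyte count and median therefore rest mostly on rows inside the background. In each of these lists 0 genes passed in limma. At an unadjusted p of 0.05, beside 3.10% of all rows, there was 1 gene each in the smooth muscle (Des, lower), fibroblast (Dcn, higher) and macrophage (Aif1, higher) lists and 0 in the other 4. The groups did not overlap, beside 2.57% of all rows, in 2 smooth muscle markers (Des and Smtn, lower) and 1 fibroblast marker (Dcn, higher). Single arrays weighed on these medians. Without non-transgenic replicate 1 that of the adipocyte markers was -0.0050. That of the macrophage markers was 0.077 without P467L replicate 2, 0.30 without P467L replicate 3 and 0.26 without non-transgenic replicate 1, and that of the fibroblast markers 0.021 without P467L replicate 2 and 0.027 without non-transgenic replicate 2. The summed log2 level of the 10 adipocyte markers was 69.7 to 72.8 in P467L and 69.5 to 79.6 in non-transgenic artery, the highest being non-transgenic replicate 1. That of the 12 smooth muscle markers was 119.2 to 120.9 in P467L and 120.2 to 122.6 in non-transgenic artery, and that of the 11 nerve markers was 70.8 to 71.5 in P467L and 70.5 to 71.4 in non-transgenic artery.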

How the data were processed

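Per the labels' protocols, artery RNA was isolated with Trizol followed by column purification, and about 50 ng was amplified in 2 steps and labelled with biotin. The authors deposited log2 values, 1 per array and row, for which the submitters' processing notes name RMA, Affymetrix Power Tools and mm9, with no version or background setting. Detection calls were not used. RMA as usually run summarises probes by median polish, which can return ties. Whether that step made the ties in these values was not tested.

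Of 23332 rows, 14996 had 1 gene symbol in the platform annotation, 1019 several and 7317 none. A gene with several rows was represented by the one with the highest mean. There were 0 sample columns besides the 7 used, and 0 pairs of arrays were identical. All rows were fitted with limma 3.58.1 in R 4.3.3 (lmFit, eBayes, no covariate, no filter on dim rows). P-values were adjusted by Benjamini-Hochberg over the whole table, with 0.05 as threshold. The script was tested on simulated data. A positive difference means a higher P467L mean, and 95% intervals come from that fit. Exact permutation tests used the 35 splits of 7 arrays and scipy 1.17.1.

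The members and the 10 lists were chosen with earlier results of these data known. Named genes are the 8 members, Pparg, Myh11, and up to 3 of smallest p per list, and, for each member with an SD of at least 0.2, the 2 genes of most like pattern. Marker lists other than nerve are given by counts, with the names of the few genes counted. Gnaq, Gna11, Gnai2, Gnai3, Plcb1, Plcb3, Th, Npy and Slc6a2 were named for their role after their values were seen.

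The results were recomputed with each array left out in turn, with array weights, with trended robust moderation, with the dimmest 25% or 50% of rows removed, after median centring or another round of quantile normalization, with replicate numbers as a block, and with an adipocyte score (mean of scaled marker values) as covariate. Correlations of deviations from group means between same-numbered arrays were 0.12, -0.20 and -0.090 for numbers 1, 2 and 3. Between arrays of different numbers they ran from -0.33 to 0.28. The numbers were not taken to pair mice, though so few values cannot exclude a pairing. A planned correlation of Adrb3 with the adipocyte marker level was not run, since that gene had no row. RefSeq promoters were found for both genes.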

Additional observations from a re-analysis of the deposited data

Results flagged for a closer look

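In 29 genes checked, the values of the 4 non-transgenic mice held 1 value far from the others in 5, where chance alone gives about 1 in 20 groups. Adra2c was at 5.78 in non-transgenic replicate 3 and at 5.83 in the other 3. Dbh was at 5.50 in non-transgenic replicate 2, against 5.57 in the others. Plcb1 was at 6.62 in non-transgenic replicate 1, against 6.56 in the others, and Th was at 6.22 in non-transgenic replicate 3, against 6.24. Smtn, a smooth muscle marker, was at 8.84 in non-transgenic replicate 2, against 8.60 in the others. In all 5 genes the other 3 values were tied, so any departure from the tie meets the criterion.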

How the results depend on the processing

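No row was called under any of the alternatives run (limma, adjusted p of 0.05), with a smallest adjusted p between 0.166 (array weights) and 1, and 724 rows had an unadjusted p under 0.05 in the fit reported. Of the receptor differences, that of Adra1b was -0.0044 with array weights and -0.023 with the replicate block, and that of Adra2c was 0.083 with array weights and 0.0033 with the replicate block. The array weights gave P467L replicate 1 a weight of 3.54, against 0.334 to 1.69 for the other arrays. In the replicate block non-transgenic replicate 4 has no partner and does not enter the difference, and this block changed no call. With 1 array left out, the difference ran from -0.023 to 0.085 for Adra1b and from -0.057 to 0.072 for Adra2c. Their median ran from -0.011 to 0.061. The cause of these changes of sign was not tested, and each lies within the 95% intervals given. Both receptor rows fell among the lowest 50% of rows and have no value with those left out. No second row and no member above the olfactory 95th percentile existed, so those alternatives gave no value. On single arrays the Adra1b row was above 84.0% of olfactory rows in non-transgenic replicate 4, and the Adra2c row above 82.9%, 79.1% and 78.3% in P467L replicates 1, 2 and 3. With the adipocyte covariate the difference was 0.021 for Pparg and 0.033 for Gnai3, and with array weights 0.0040 for Gnai3 and 0.014 for Uchl1. With 1 array left out, Pparg ran from -0.21 to 0.027, Gna11 from -0.20 to 0.075, Gnai2 from -0.0050 to 0.090, Gnai3 from -0.17 to 0.065, Npy from -0.063 to 0.023 and Slc6a2 from -0.035 to 0.047. The catecholamine median was 0.11 over the genes left when the lowest 50% of rows were removed, a list of fewer genes. The brown adipocyte median was -0.049 with array weights. With 1 array left out it ran from -0.098 to -0.041, the adipocyte median from -0.36 to -0.0050, the macrophage median from 0.077 to 0.30, the fibroblast median from 0.021 to 0.097, the endothelial median from -0.040 to 0.077, the nerve median from -0.0025 to 0.030, the G protein median from -0.057 to 0.025, the catecholamine median from 0.0087 to 0.027 and the kinase, arrestin and RGS median from -0.055 to -0.010. Likewise Gnaq ran from 0.17 to 0.40, Dbh from 0.012 to 0.097, S100b from 0.097 to 0.30 and Uchl1 from -0.23 to -0.055. Of 623 alternative values, 592 kept their direction and side of the threshold or moved by less than the replicate spread. Since no row was called in any fit, the side of the threshold could not differ. This total does not describe the receptors. The sign of the Adra1b difference was reversed in 4 alternatives and kept in 10, and that of Adra2c was reversed in 6 and kept in 8. Signal near the olfactory background limits what can be said of both receptors.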
